A study of Saccharomyces cerevisiae with 2 samples.

Results

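The genes described are those for the subunits of nuclear RNA polymerases I, II and III of the budding yeast Saccharomyces cerevisiae. They were chosen by name, as every gene whose standard name is RPA, RPB or RPC followed by a number, together with RPO21, RPO26, RPO31 and RET1. This gave 31 genes of the 7163 features with values, and all 31 had at least 1 FPKM (read counts scaled by gene length and by library size) in either strain. By the polymerase they belong to, 7 are particular to polymerase I, 7 to polymerase II and 10 to polymerase III, 2 are shared by polymerases I and III, and 5 are shared by all 3. Cultures of MF02 and UV02_HG were compared. MF02, labelled wild type, and UV02_HG were both cultured at 40% (w/v) glucose and taken in mid-exponential phase, so that high glucose is shared by the strains. The series title speaks of tolerance to high glucose, but the labels do not say how UV02_HG was obtained or which alleles it carries, and each strain stands for 1 background. Each strain has 1 sample and 2 columns of FPKM values. The study speaks of duplicates without saying whether they were separate cultures, so both columns count here as repeat runs of 1 sample, their spread may be technical, and no p-value was computed.

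Polymerase I makes the large ribosomal RNA precursor, polymerase II makes messenger RNA and many noncoding RNAs, and polymerase III makes transfer RNA, the small ribosomal RNA and other short RNAs. The enzymes share a common core: the largest and second largest subunits form the active centre, an alpha-like pair nucleates assembly, 5 small common subunits occur in each enzyme, and a pair of subunits forms a protruding stalk. Polymerases I and III carry built-in subunits that resemble initiation factors of polymerase II. In growing yeast cells most transcription is by polymerases I and III, and many genes for their subunits are controlled along with other ribosome biogenesis genes through PAC (polymerase A and C) and RRPE (ribosomal RNA processing) promoter elements.

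The promoters of 8 subunit genes are shown because they hold, or lack, these elements in ways that differ between the polymerases, among genes with high and with low ratios alike. The build used by the authors is not stated, so the sequences and coordinates are those of the R64 reference (NCBI RefSeq), found by locus. Each runs from 250 to 51 bases before the coding start, 5′ to 3′ on the strand of the gene. Capitals mark PAC (GATGAG or its complement CTCATC) and the RRPE core (AAAATTTT), and the 2 PAC matches of RPA190 overlap. RPA190 (chrXV:960737-960936, plus strand), RPC40 (chrXVI:746886-747085, minus strand) and RPO31 (chrXV:544196-544395, minus strand) have PAC and had lower means in UV02_HG, RPA190 with overlapping columns. RPA34 (chrX:140187-140386, plus strand) has both elements and was not lower. RPO21 (chrIV:210612-210811, minus strand) has no PAC match and was lower, as were RPB2, RPB3, RPB7, RPB8 and RPA12, which have none upstream either. RPO26 (chrXVI:911007-911206, plus strand), RPB9 (chrVII:374878-375077, minus strand) and RPC11 (chrIV:548361-548560, minus strand) have no PAC match and were higher.
RPA190: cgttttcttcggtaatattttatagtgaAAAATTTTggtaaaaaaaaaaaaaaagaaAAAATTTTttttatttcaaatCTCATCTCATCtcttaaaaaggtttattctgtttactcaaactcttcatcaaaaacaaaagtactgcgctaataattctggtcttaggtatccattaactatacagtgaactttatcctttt
RPC40: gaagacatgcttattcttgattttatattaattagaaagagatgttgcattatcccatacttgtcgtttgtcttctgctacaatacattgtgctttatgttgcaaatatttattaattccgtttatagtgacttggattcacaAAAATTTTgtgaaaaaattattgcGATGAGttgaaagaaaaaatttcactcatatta
RPO31: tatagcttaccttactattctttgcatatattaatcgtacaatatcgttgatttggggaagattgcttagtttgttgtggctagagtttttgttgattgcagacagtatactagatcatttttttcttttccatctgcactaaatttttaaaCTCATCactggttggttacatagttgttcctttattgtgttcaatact
RPA34: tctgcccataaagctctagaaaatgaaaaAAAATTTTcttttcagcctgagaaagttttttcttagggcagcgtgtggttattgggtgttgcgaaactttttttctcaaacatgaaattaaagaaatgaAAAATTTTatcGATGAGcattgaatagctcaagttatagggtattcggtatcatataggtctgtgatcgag
RPO21: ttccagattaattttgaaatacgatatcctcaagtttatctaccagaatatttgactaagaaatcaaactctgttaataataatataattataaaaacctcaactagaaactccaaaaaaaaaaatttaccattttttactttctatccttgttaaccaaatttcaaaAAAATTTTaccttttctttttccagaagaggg
RPO26: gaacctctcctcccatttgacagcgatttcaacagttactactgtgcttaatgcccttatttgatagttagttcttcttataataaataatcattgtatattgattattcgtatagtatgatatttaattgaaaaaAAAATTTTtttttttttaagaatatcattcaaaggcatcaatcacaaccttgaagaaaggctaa
RPB9: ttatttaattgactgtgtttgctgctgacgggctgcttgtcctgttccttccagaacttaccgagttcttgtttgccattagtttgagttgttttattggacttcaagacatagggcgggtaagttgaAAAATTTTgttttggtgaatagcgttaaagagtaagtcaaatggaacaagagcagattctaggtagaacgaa
RPC11: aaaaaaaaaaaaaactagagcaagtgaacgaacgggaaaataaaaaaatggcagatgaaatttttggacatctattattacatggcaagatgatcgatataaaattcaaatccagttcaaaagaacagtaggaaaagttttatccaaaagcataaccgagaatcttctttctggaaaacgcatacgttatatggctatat

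PAC was found upstream of the coding start, within 250 bases, in 16 of the 31 subunit genes. This was 6 of 7 genes of polymerase I, both genes shared by polymerases I and III, 8 of 10 genes of polymerase III, 0 of 7 of polymerase II and 0 of 5 common to all 3, against 17.0% of 6001 R64 protein-coding genes. The exceptions were RPA12 in polymerase I and RPC17 and RPC11 in polymerase III. The RRPE core occurred upstream of 16 subunit genes (8.65% of all genes) and both elements of 12 (4.08% of all genes). RPA190 has 2 overlapping PAC matches that begin 172 and 167 bases before its coding start, and RPA135 has 2 that begin 109 and 104 bases before, beside another that spans its start codon. Counting the first 50 coding bases as well added 1 gene, RPB2, with a match inside its coding region. A match to the Abf1 consensus, a general regulatory factor site, was present upstream of 4 of the 5 common subunit genes (RPO26, RPB8, RPB10 and RPC10) and of 13 subunit genes in all, against 11.6% of all genes. The Reb1 site TTACCCG was upstream of 4 subunit genes, against 7.03% of all genes. These matches describe the letters in the windows and were searched on both strands.

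**Figure D1:**
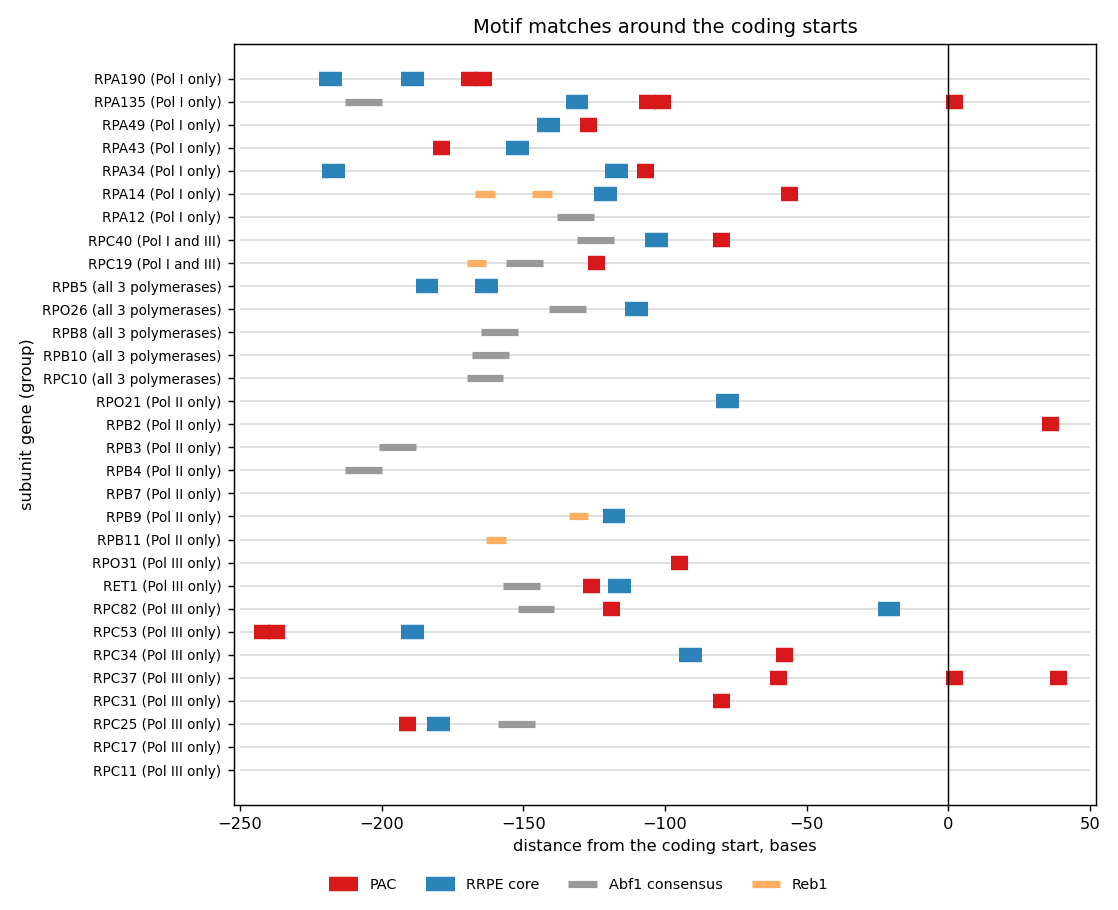
Matches to PAC, the RRPE core, the Abf1 consensus and the Reb1 site from 250 bases before to 50 bases after the coding start (x axis, bases) of the 31 subunit genes (y axis, with their polymerase). PAC lies upstream in 16 genes, all of them of polymerase I, of polymerase III or of both.

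Across the table, differences between the strains varied with gene length and with scaling, and those of the subunits did too. Log2 ratios are log2 of (FPKM + 1) in UV02_HG over MF02, from the mean of the 2 columns of each strain, which understates differences of weakly expressed genes. Features were kept from 1 FPKM upward in at least one strain, and the 6291 kept had a median ratio of -0.89. Setting FPKM totals equal shifted it by -0.94, scaling to the upper quartile by 0.65, the trimmed mean of M values by 0.77 and centring on the median feature by 0.89. Spearman's rho of coding length with the ratio was -0.66 over the 31 subunit genes and -0.53 over 5695 genes, given as a description since genes share libraries and are not replicates. Within MF02, rho of length with the ratio of column 2 over column 1 was larger in size, at 0.76 and 0.62 over the same genes. Within UV02_HG it was -0.06 and 0.07. The columns of MF02 differed as well: column 2 exceeded column 1 by 2-fold or more for 16 of the 31 subunit genes (28.0% of all features), and the reverse held for 0 (10.2%). Between the UV02_HG columns, 3 subunit genes were that much higher in column 2 and 1 was that much lower. All features were not counted for this pair of columns, so these counts stand without a background. Ranges in parentheses after a ratio or fold are over the 4 comparisons of single columns. A value relative to length is the ratio less the median over 201 genes centred on the gene in order of coding length. At the ends of that order the 201 shortest or longest genes were used, which holds for RPO21 and RPA190. The columns rested on 12507299 to 15144991 counted reads. The 31 genes had from 31 to 7418 reads in a column, so counting error was largest for RPC82, with 32 and 31 reads in UV02_HG. In bulk RNA, fewer cells of a kind and less RNA per cell cannot be told apart.

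In the values as deposited, more subunit genes were lower than higher in UV02_HG, and a few of the shortest were far higher. Of the 31, 18 were at least 2-fold lower (47.2% of all features were) and 6 were at least 2-fold higher (14.7% of all features). That order depended on scaling, as it did over all features. After centring on the median feature 6 were lower and 8 higher (1296 and 1797 of the 6291 features). The trimmed mean of M values also gave 6 and 8 (1431 and 1642 of the features). The 6 higher genes were RPB9, RPO26, RPC10, RPB10, RPC11 and RPC17, all with coding regions of 486 nt or less. In each of the 4 column comparisons, 3 were at least 2-fold lower (24.9% of all features), namely RPA14, RPO21 and RPC37, and 3 at least 2-fold higher (8.68%), namely RPO26, RPB9 and RPC10. Under each of the 4 other scalings, 6 were 2-fold or more lower (20.5% of all features), namely RPA135, RPC40, RPO21, RPO31, RPC82 and RPC37, and RPO26 and RPB9 were 2-fold or more higher (6.56%). The median ratio of the 31 was -1.21 (-1.65 to -0.42 over the column comparisons), against -0.89 for all features. Relative to genes of the same length the median was -0.37 (-0.79 to 0.15), 9 genes lay below -1 (16.8% of genes) and 3 above 1 (17.1% of genes), the log2 values of 2-fold. In all 4 column comparisons of this length-relative ratio, 6 lay below -1 (7.80% of genes) and 2 above 1 (8.17% of genes). The 6 were RPA14, RPB8, RPO21, RPB7, RPB11 and RPC37, and the 2 were RPB9 and RPO26. As deposited, the columns of the strains did not overlap for 25 of the 31: both MF02 columns were above both UV02_HG columns for 19 (56.4% of all features) and below for 6 (20.7% of all features).

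**Figure D2:**
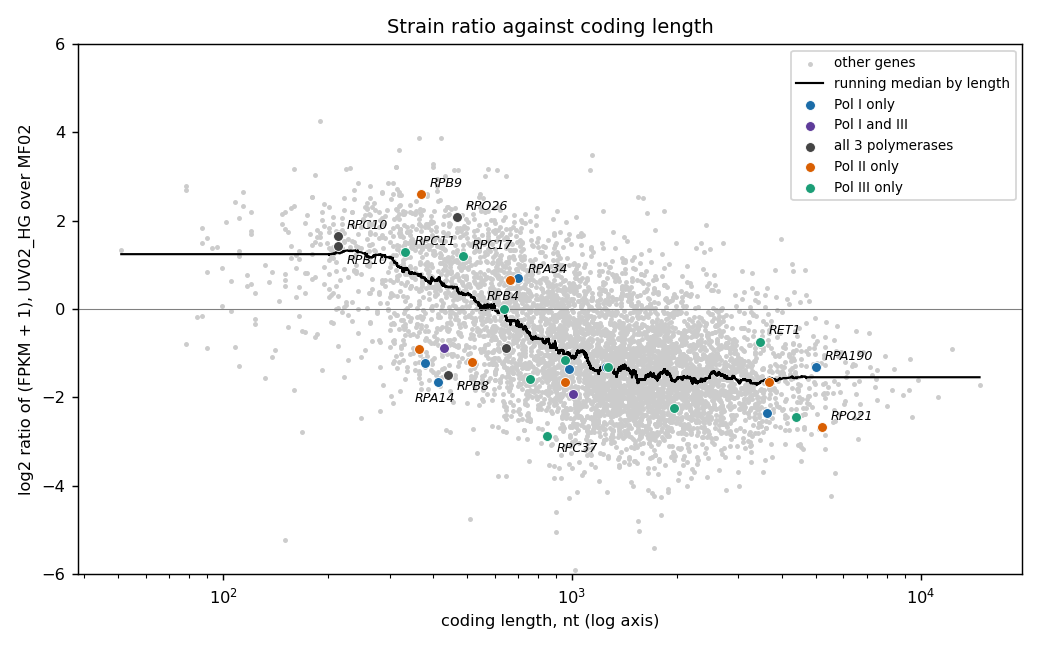
Log2 ratio of UV02_HG over MF02 (y axis) against coding length in nt (x axis, log scale) for 5695 genes (grey), with the running median by length (black line) and the 31 subunit genes coloured by polymerase. RPB9 and RPO26 lie above the line, and RPA14, RPB8 and RPC37 lie below it.

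Subunit genes of polymerase I had lower means in UV02_HG, with RPA34 as the exception. Of the 7, 6 were lower by 2-fold or more (47.2% of all features) and 0 higher (14.7%), with a median of -1.32 (-2.02 to -0.42), or -0.37 (-0.79 to 0.26) relative to length. In all 4 column comparisons 1 of the 7 was 2-fold or more lower (24.9% of all features). RPA190 encodes the largest subunit and stood at 10.9 and 48.0 FPKM in MF02 against 11.1 and 11.4 in UV02_HG. Its UV02_HG columns were level with MF02 column 1 and far under column 2, so that its 2.49-fold lower mean ran from a log2 ratio of -2.02 to 0.06 and stood at 0.23 (0.09 to 0.76) relative to length. RPA135, the second largest subunit, stood at 9.39 and 45.7 FPKM in MF02 against 5.29 and 3.86 in UV02_HG. Both of its UV02_HG columns were under both MF02 columns, 5.12-fold lower (1.65 to 9.59), at -0.75 (-1.16 to 0.00) relative to length. RPA190 and RPA43 are divergent neighbours on chromosome XV with 804 nt between their coding regions, and RPA43 stood at 11.0 and 29.7 FPKM in MF02 against 7.99 and 6.57 in UV02_HG. RPA43, the stalk subunit that contacts the initiation factor Rrn3, was 2.58-fold lower (1.33 to 4.06), at -0.37 relative to length.

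The other stalk subunit of polymerase I, RPA14, stood lowest for its length among the 31 genes. It stood at 107 and 87.9 FPKM in MF02 against 17.6 and 42.6 in UV02_HG, with no overlap of the strains. This was 3.16-fold lower (2.04 to 5.81), at -2.38 (-3.08 to -1.69) relative to length. Another annotated reading frame, YDR157W, overlaps RPA14 in the R64 annotation and had at most 0.493 FPKM in any column. RPA12, which takes part in RNA cleavage and termination, stood at 56.6 and 70.2 FPKM in MF02 against 39.6 and 14.0 in UV02_HG, 2.32-fold lower (1.42 to 4.75) and -1.91 (-3.18 to -0.95) relative to length. RPA49 and RPA34 form the heterodimer that resembles TFIIF. RPA49 was 2.47-fold lower (1.08 to 4.58), but at 0.00 (-0.59 to 0.69) relative to length. RPA34 stood at 26.0 and 97.6 FPKM in MF02 against 67.8 and 134 in UV02_HG. The log2 ratio of RPA34 was 0.70 (-0.52 to 2.32) and turned to -0.40 under equal FPKM totals, and its columns overlapped between the strains. Relative to length it was 1.04 (-0.20 to 2.66).

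RPC40 and RPC19, the alpha-like pair of polymerases I and III, were placed differently. RPC40 stood at 36.6 and 131 FPKM in MF02 against 21.9 and 20.4 in UV02_HG, 3.82-fold lower (1.64 to 6.15), at -0.83 (-1.23 to 0.15) relative to length. RPC19 stood at 10.2 and 21.2 FPKM in MF02 against 10.1 and 6.08 in UV02_HG, a log2 ratio of -0.88 (-1.65 to -0.02) that centring on the median feature brought to 0.01. For its length RPC19 was low, at -1.46 (-2.39 to -0.41). In MF02 and UV02_HG alike RPC40 was the more abundant of the pair per length.

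The 5 subunits common to all 3 polymerases split by gene, with 3 of them above MF02 by 2-fold or more in UV02_HG (14.7% of all features) and 1 below it by as much (47.2%). The 3 have coding regions of 213 to 468 nt, and of the 832 other genes of up to 500 nt, 373 were as much higher. RPO26 stood at 273 and 250 FPKM in MF02 against 1002 and 1215 in UV02_HG. The strains were far apart and each pair of columns was close, so the 4.23-fold higher value had a narrow range (3.67 to 4.85) and stood at 1.59 (1.33 to 1.84) relative to length. Under the 4 scalings its log2 ratio lay between 1.15 and 2.97. RPO26 is divergent from PZF1, the gene of the transcription factor TFIIIA, with 234 nt between them, and PZF1 had a log2 ratio of -1.12. RPC10 stood at 382 and 285 FPKM in MF02 against 997 and 1113 in UV02_HG, 3.16-fold higher (2.61 to 3.90). RPB10 stood at 394 and 502 FPKM in MF02 against 632 and 1787 in UV02_HG, 2.70-fold higher (1.26 to 4.53), with UV02_HG column 2 well above the other 3 columns. Both have coding regions of 213 nt, where other genes were high too, and relative to length they stood at 0.36 (0.16 to 0.55) and 0.15 (-1.30 to 1.07).

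RPB8 lay on the other side, with 79.0 and 139 FPKM in MF02 against 31.7 and 44.3 in UV02_HG. It was 2.82-fold lower (1.77 to 4.28) and -2.0 (-2.81 to -1.12) relative to length, although its coding region of 441 nt is close to the 468 nt of RPO26. RPB5 stood at 40.8 and 128 FPKM in MF02 against 42.7 and 47.7 in UV02_HG, so the strains overlapped, and its log2 ratio of -0.89 went from -1.96 under equal FPKM totals to 0.04 under the trimmed mean of M values. Relative to length RPB5 was at -0.64 (-1.33 to 0.61). Among the common subunits log2 ratios ran from -1.49 to 2.08 and their length-relative ratios from -2.0 to 1.59.

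**Figure D3:**
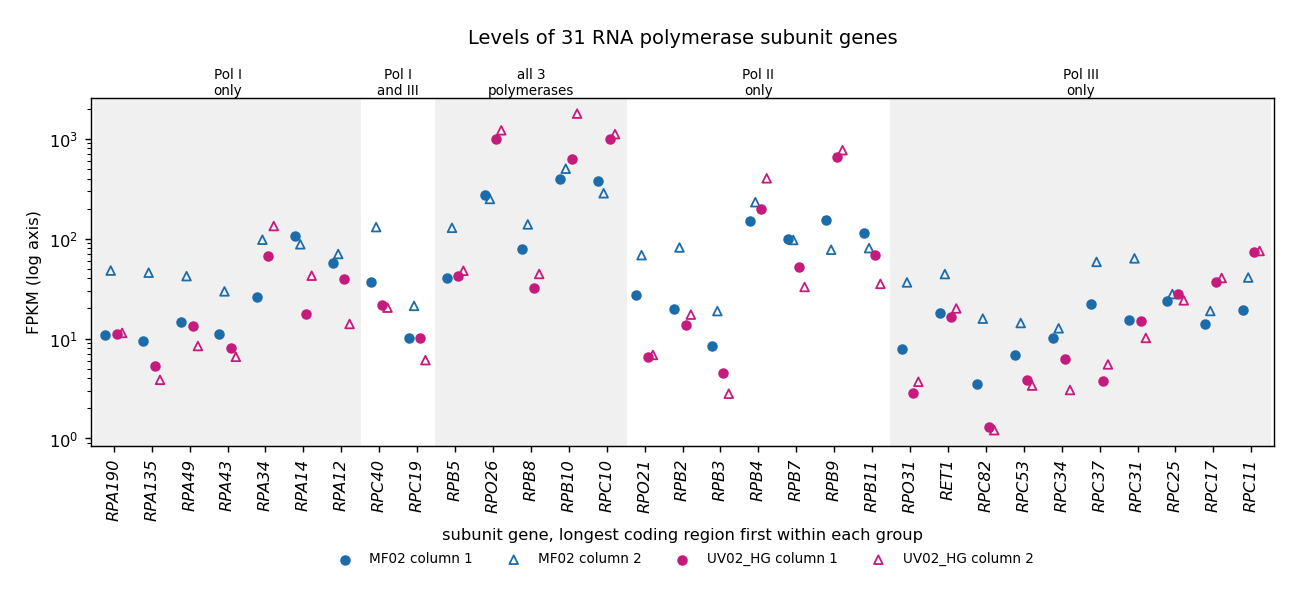
FPKM (y axis, log scale) of the 31 subunit genes in the 2 MF02 columns and the 2 UV02_HG columns, grouped by polymerase. RPO26, RPB10, RPC10 and RPB9 are the 4 highest in both UV02_HG columns, between 632 and 1787 FPKM.

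Polymerase II held the highest and some of the lowest ratios. Of its 7 own subunits, 4 were lower by 2-fold or more and 1 higher, close to the 47.2% and 14.7% of all features, with a median of -1.19 (-1.53 to -0.74), or -0.64 (-1.06 to -0.12) relative to length. RPB9, a small subunit with roles in start site selection and transcriptional fidelity, stood at 155 and 77.5 FPKM in MF02 against 654 and 769 in UV02_HG. Both UV02_HG columns were far above MF02, 6.06-fold higher (4.18 to 9.81), with a log2 ratio between 1.75 and 3.49 under the 4 scalings and 1.88 (1.56 to 2.30) relative to length. RPO21, the largest subunit, whose carboxy-terminal repeats are phosphorylated during transcription, stood at 27.2 and 68.4 FPKM in MF02 against 6.49 and 6.85 in UV02_HG. This was 6.36-fold lower (3.59 to 9.27), and -1.13 relative to length with a narrow range (-1.17 to -1.06). Relative to length and GC content RPO21 was at -0.81, short of 2-fold. The second largest subunit gene, RPB2, stood at 19.6 and 81.7 FPKM in MF02 against 13.7 and 17.4 in UV02_HG, 3.12-fold lower (1.12 to 5.63) but at -0.08 (-0.34 to 0.47) relative to length.

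RPB4 and RPB7 form the stalk of polymerase II and stood apart from each other. RPB4 stood at 149 and 232 FPKM in MF02 against 196 and 402 in UV02_HG. Its strains overlapped, and its log2 ratio of 0.65 (-0.24 to 1.43) turned to -0.36 under equal FPKM totals and was 0.91 (-0.01 to 1.82) relative to length. RPB7 stood at 99.0 and 97.0 FPKM in MF02 against 51.9 and 32.8 in UV02_HG, 2.28-fold lower (1.85 to 2.96) and -1.47 (-1.86 to -1.21) relative to length. The alpha-like pair RPB3 and RPB11 was lower in UV02_HG in all 4 column comparisons. RPB3 stood at 8.49 and 18.8 FPKM in MF02 against 4.51 and 2.80 in UV02_HG, 3.15-fold lower (1.72 to 5.21) and -0.64 (-1.15 to -0.12) relative to length. RPB11 stood at 115 and 80.4 FPKM in MF02 against 68.5 and 35.3 in UV02_HG, a log2 ratio of -0.90 that was -1.69 (-2.19 to -1.13) relative to length.

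Of the 10 genes particular to polymerase III, 6 were lower by 2-fold or more and 2 higher, close to the 47.2% and 14.7% of all features, with a median of -1.23 (-1.78 to -0.38). Relative to length its median was -0.07 (-0.39 to 0.12). The largest subunit gene, RPO31, stood at 7.79 and 36.5 FPKM in MF02 against 2.85 and 3.69 in UV02_HG, 5.42-fold lower (1.87 to 9.75) and -0.87 (-1.13 to -0.30) relative to length. RET1, the second largest, stood at 18.0 and 44.2 FPKM in MF02 against 16.5 and 20.0 in UV02_HG. The strains overlapped for RET1, whose log2 ratio of -0.74 turned to 0.15 under centring on the median feature and was 0.94 (0.69 to 1.07) relative to length. In the trimer that serves in initiation, RPC82 was 4.74-fold lower (1.97 to 7.61), RPC31 2.99-fold (1.03 to 5.79) and RPC34 2.21-fold (1.56 to 3.37). Relative to length RPC34 stood at -0.13 (-0.53 to 0.19), RPC82 at -0.61 (-0.98 to -0.01) and RPC31 at -1.05 (-1.91 to 0.25). RPC82 was the least abundant subunit gene of UV02_HG, with 1.30 and 1.21 FPKM there against 3.54 and 15.8 in MF02.

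RPC53 and RPC37 form the TFIIF-like pair of polymerase III, which acts in termination and reinitiation. RPC37 stood at 22.4 and 58.6 FPKM in MF02 against 3.77 and 5.51 in UV02_HG, the lowest ratio of the 31 genes, 7.35-fold lower (3.59 to 12.5) and -2.20 (-2.94 to -1.06) relative to length. Its partner RPC53 was 2.50-fold lower (1.61 to 3.49) and at -0.01 (-0.15 to 0.12) relative to length. The stalk gene RPC25 stood at 24.0 and 27.9 FPKM in MF02 against 27.9 and 24.1 in UV02_HG, a log2 ratio of 0.00 (-0.20 to 0.21). Scaling moved it to between -0.93 and 0.89. RPC17, the other stalk gene, stood at 14.0 and 18.9 FPKM in MF02 against 37.2 and 40.4 in UV02_HG, 2.28-fold higher (1.92 to 2.76) and 0.84 (0.47 to 1.5) relative to length. RPC11, the RNA cleavage subunit, stood at 19.2 and 40.8 FPKM in MF02 against 74.0 and 75.3 in UV02_HG, 2.44-fold higher (1.79 to 3.77) but 0.36 (-0.25 to 1.30) relative to length.

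**Figure D4:**
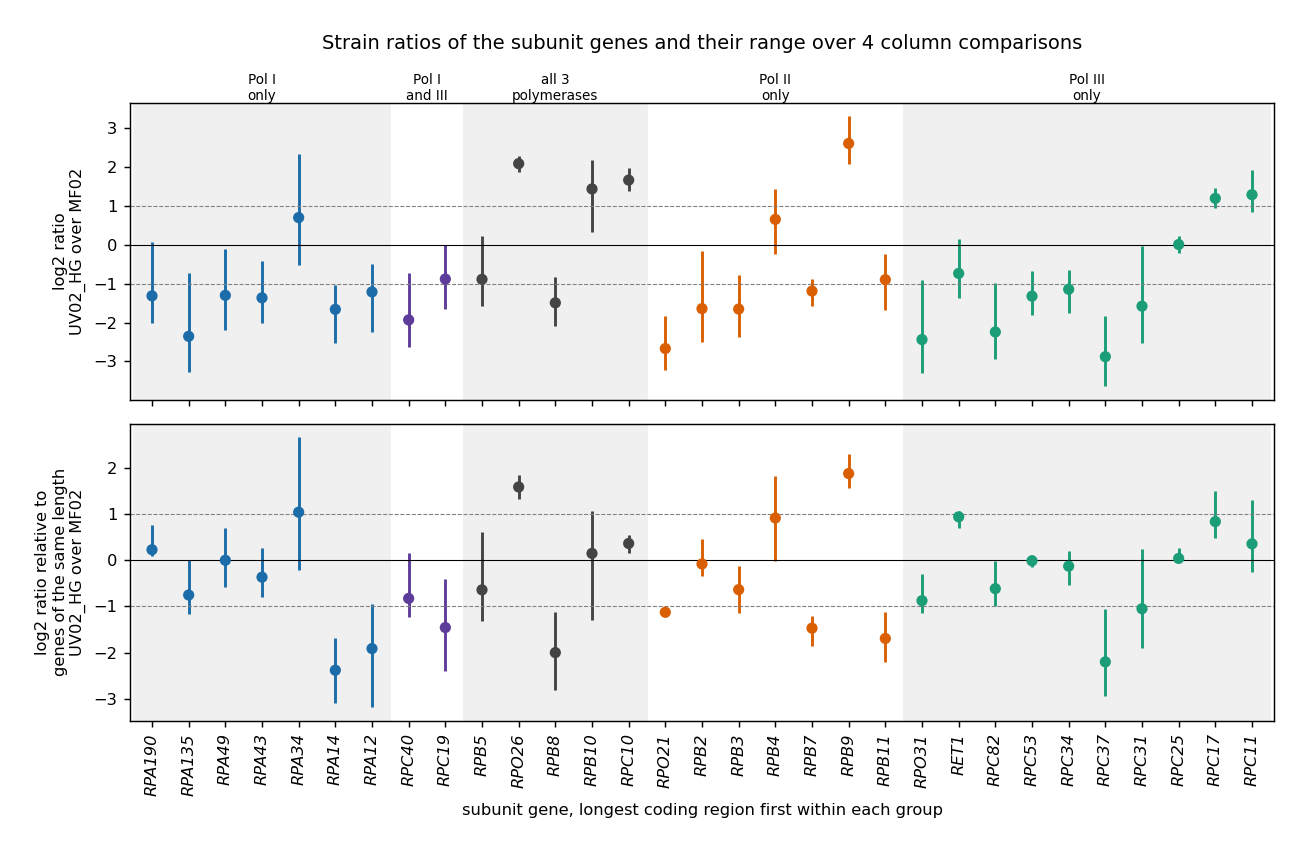
Log2 ratio of UV02_HG over MF02 (upper panel) and the same relative to genes of like coding length (lower panel) for the 31 subunit genes. Points are from the strain means, vertical lines run from the lowest to the highest of the 4 column comparisons, and dashed lines mark 2-fold. RPB9 and RPO26 stay above the upper dashed line in both panels.

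Levels of the subunit genes were spread more widely in the UV02_HG columns than in the MF02 columns. The SD of log2(FPKM + 1) over the 31 genes was 1.76 and 1.30 in the MF02 columns and 2.38 and 2.66 in the UV02_HG columns, against 2.49, 2.30, 2.64 and 2.60 over all features in the same order. The most abundant subunit gene stood 111-fold and 39.6-fold above the least abundant in MF02, and 770-fold and 1478-fold above it in UV02_HG. RPB9, RPO26, RPB10 and RPC10, grouped after their values were seen, made up 55.6% and 38.9% of the summed FPKM of the 31 genes in MF02 and 80.4% and 82.7% in UV02_HG. RPB10, RPC10 and RPO26 were the 3 highest in both MF02 columns too. These 4 genes have coding regions of 213 to 468 nt, and the part of length in their share was not tested. The 11 subunit genes of up to 500 nt had a median log2 ratio of 1.19, against 0.83 for 832 other genes of that length, and the 7 over 1300 nt had -2.24, against -1.54 for 2618 others. Relative to length the median of the 11 was 0.15 (-1.13 to 0.43). Of them 5 lay below -1 and 2 above 1, against 195 and 131 of the 832 others. The 7 were at -0.61 relative to length (-0.89 to 0.00), and their median coding length was 3675 nt against 1950 nt for the 2618 others.

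Because counterparts at the same position of the 3 enzymes are often of like length and scaling acts on them alike, their ratios were set beside each other at 5 positions. At the position of RPB9, the polymerase I gene RPA12 differed in log2 ratio by -3.81 from RPB9 (-5.54 to -2.57 over the column comparisons) and by -2.50 (-3.86 to -1.65) from the polymerase III gene RPC11. The coding lengths are 378, 369 and 333 nt. RPA12 was at 2.94 and 1.72 times the FPKM of RPC11 in the MF02 columns and at 0.535 and 0.186 times in UV02_HG. At the position of RPB4 in the stalk, RPA14 differed by -2.31 from RPB4 (-2.93 to -1.82) and by -2.85 from RPC17 (-3.89 to -2.09). RPA14 was at 7.64 and 4.65 times the FPKM of RPC17 in MF02 and at 0.473 and 1.05 times in UV02_HG. Here the coding lengths are less alike, at 414 nt for RPA14, 666 nt for RPB4 and 486 nt for RPC17. In both places the polymerase I gene had the lower ratio in each of the 4 column comparisons.

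The largest subunits gave another order. RPA190 had a log2 ratio 1.35 above RPO21 (1.16 to 1.93) and 1.12 above RPO31 (0.96 to 1.26). Its FPKM was 0.401 and 0.701 times that of RPO21 in MF02 and 1.71 and 1.66 times in UV02_HG, so the order of the genes differed between the strains. RPO31 and RPO21 differed by 0.23 (-0.07 to 0.94), within the spread of the columns. Among the second largest subunits RPA135 differed from RPB2 by -0.71 (-1.09 to -0.24), and RET1 lay 0.91 above RPB2 (0.31 to 1.12). At the RPB7 position of the stalk, RPC25 lay 1.19 above RPB7 (0.89 to 1.57), while RPA43 differed from RPB7 by -0.18 (-0.88 to 0.90) with a coding region of 981 nt against 516 nt. Relative to length RPA43 lay 1.10 above RPB7 (0.52 to 1.76). In the alpha-like pair, RPC40 differed from RPB3 by -0.28 (-0.68 to 0.51) and RPC19 from RPB11 by 0.02 (-0.78 to 1.01). Over the 5 positions the median difference from polymerase II was -0.71 (-1.09 to -0.24) for polymerase I and 0.54 (0.26 to 0.89) for polymerase III, and the single positions ran from -3.81 to 1.35 and from -1.32 to 1.19. The 0.54 is the difference of RPC17 from RPB4 (0.04 to 1.18), a pair at -0.08 (-0.55 to 0.64) relative to length. Over the 5 positions the polymerase III median was 0.25 relative to length, -0.0025 with GC content added and 0.93 without UV02_HG column 2. The polymerase I value was -0.33 with a pseudocount of 5, and ran from -1.06 without UV02_HG column 1 to -0.37 without UV02_HG column 2.

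**Figure D5:**
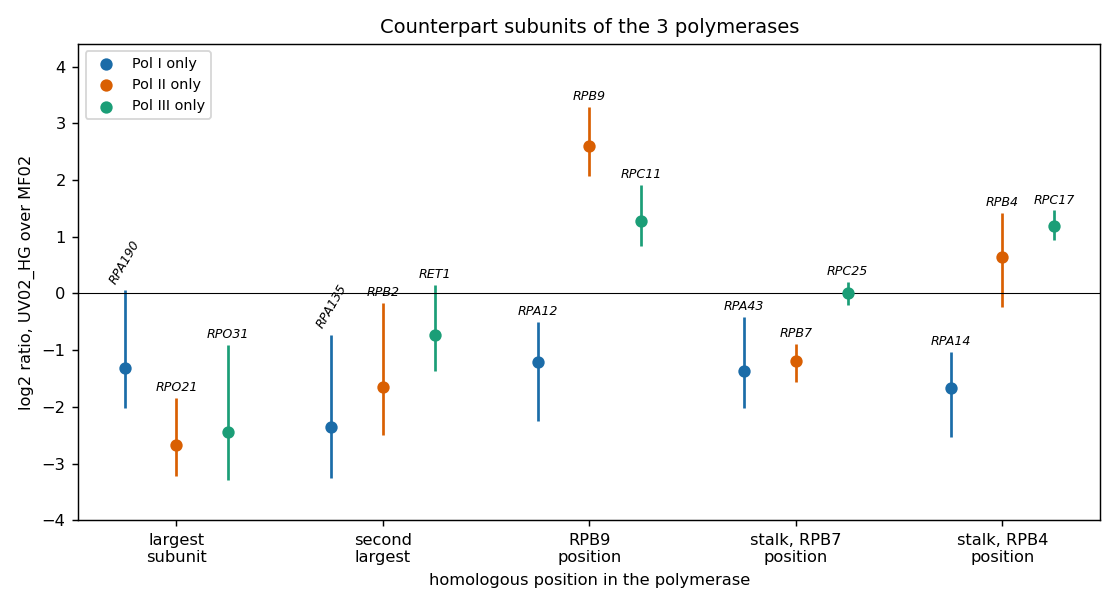
Log2 ratio of UV02_HG over MF02 (y axis) for the counterpart subunits of polymerases I, II and III at 5 homologous positions (x axis). Points are from strain means and lines span the 4 column comparisons. RPA12 and RPA14 lie below their counterparts, and RPA190 lies above RPO21 and RPO31.

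The ratios of subunit genes with and without PAC were set side by side. The 16 genes with PAC upstream had a median of -1.34, with 12 lower by 2-fold or more and 0 higher, and the 15 without had -0.89, with 6 lower and 6 higher, where 47.2% of all features were lower and 14.7% higher. Of the 917 other genes with PAC, 483 were lower and 91 higher. The difference of the medians, -0.45, was unstable: it was -0.79, -0.79, -0.74 and -1.25 without UV02_HG column 2, MF02 column 2, UV02_HG column 1 and MF02 column 1, and -0.15 relative to length and GC content. The single column comparisons gave -1.66 to -0.59, a range that leaves out the value from the means. With the first 50 coding bases counted, the medians were -1.37 with PAC and -0.12 without, or -0.37 and -0.24 relative to length. For PAC upstream of the start only, the median coding length was 995 nt with PAC and 468 nt without. Relative to length the medians were then -0.49 (single genes from -2.38 to 1.04) and -0.08 (-2.0 to 1.88). Among the other genes with PAC the length-relative median was -0.03. The distributions overlapped widely, and the genes with PAC were also longer by their median. RPO21 and RPB2, with 5202 and 3675 nt, are long genes without PAC upstream. Over 1300 nt the medians were -2.24 for 5 genes with PAC and -2.16 for 2 without, or -0.61 and -0.60 relative to length. Above 500 and up to 1300 nt they were -1.32 for 9 with and -1.04 for 4 without, or -0.13 and -0.64 relative to length. Up to 500 nt they were -1.27 for 2 with and 1.28 for 9 without, or -1.92 and 0.36 relative to length. The part of length in the raw difference was not tested beyond this split.

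Of 56 genes for factors that work with the polymerases, 38 were lower by 2-fold or more and 5 higher, where 47.2% and 14.7% of all features were. Relative to length 13 lay below -1 and 9 above 1, where 16.8% and 17.1% of genes did. Of 9 polymerase I factor genes, 4 were lower by 2-fold or more and 1 higher (median log2 ratio -0.94, length-relative 0.55), of 30 polymerase II factor genes 19 were lower and 4 higher (-1.55 and -0.15), and of 9 polymerase III factor genes 8 were lower and 0 higher (-1.42 and 0.11). Of 8 genes for TBP and assembly factors 7 were lower and 0 higher, at a median of -1.92, or -0.94 relative to length (-1.19 to -0.41). Among assembly factors BUD27, which acts in assembly of all 3 polymerases, was 6.59-fold lower (2.68 to 11.4), RBA50 6.18-fold (3.12 to 10.1) and the GTPase gene GPN2 4.07-fold (2.07 to 6.81). Relative to length these 3 stood at -1.11, -1.18 and -1.03.

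DST1, the gene of the elongation factor TFIIS, stood at 39.4 and 128 FPKM in MF02 against 5.76 and 4.21 in UV02_HG. Its 14.2-fold lower value (5.98 to 24.8) stood at -2.90 (-3.53 to -1.93) relative to length. The TFIIH gene SSL1 was 9.42-fold lower (4.61 to 15.0) and the elongation factor gene SPT5 7.93-fold lower (3.07 to 14.9), at -1.90 and -1.38 relative to length. SPT4, the partner of SPT5, was 4.10-fold higher (2.40 to 8.61), with a coding region of 309 nt and 0.95 relative to length. TOA2, the small TFIIA subunit gene, was 4.35-fold higher (2.98 to 7.86) and the phosphatase gene SSU72 3.61-fold higher (2.50 to 5.24), at 1.40 and 1.89 relative to length. In the polymerase I list the rDNA-binding HMO1 was 3.75-fold lower (2.58 to 5.78), RRN3 2.48-fold (1.68 to 3.50) and RRN10 2.02-fold (1.18 to 4.42), and RRN5 was 2.01-fold higher (1.01 to 5.15). Relative to length HMO1, RRN3, RRN10 and RRN5 stood at -1.44, 0.16, -1.52 and 2.0. UAF30 and RRN9 had log2 ratios of 0.48 (0.35 to 0.61) and 0.21 (-0.36 to 1.01), both negative under equal FPKM totals. In the polymerase III list the TFIIIB gene BDP1 was 5.73-fold lower (2.75 to 9.56), and the TFIIIC genes TFC6 and TFC3 were 4.80-fold (2.38 to 7.43) and 4.66-fold (2.23 to 7.60) lower. Relative to length these 3 were at -1.06, -0.72 and -0.59. MAF1, the repressor of polymerase III, stood at 43.9 and 58.2 FPKM in MF02 against 53.0 and 59.0 in UV02_HG, a log2 ratio of 0.13 (-0.13 to 0.42) that went from -0.84 to 1.02 over the scalings and was 1.52 relative to length.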

How the data were processed

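The authors deposited FPKM values per gene, in 2 columns for each of the strains MF02 and UV02_HG. Per the submitters' processing notes, HTSeq 0.6.1, TopHat2 2.0.12 and Bowtie2 2.2.3 were among the tools. The build and the strand setting were not given in the sources used here, so antisense overlaps cannot be told apart. Names and coding lengths came from the R64 annotation, and 6045 of 7163 features matched. FPKM times coding length gave whole reads within 0.02 for 99.8% or more of genes in each column and for all 31 subunit genes. These depths cover counting error only. A count test was not run, since there was 1 sample per strain. Ratios used a pseudocount of 1 FPKM, a filter of 1 FPKM in either strain and a threshold of 2-fold. The members and lists were chosen with earlier results of these data known. The text accounts for every subunit and names, from each factor list, up to 3 genes with the highest and up to 3 with the lowest ratio among those with at least 10 FPKM. The ratio and length adjustment were tested on simulated data, with the same length trend in both UV02_HG columns and none between the MF02 columns. The deposited MF02 columns did differ with length, which the simulation does not cover. Computation used numpy 2.4.6, scipy 1.17.1 and pandas 2.3.3 under Python 3.11.15, with plots by matplotlib 3.10.9. Alternatives were other pseudocounts, filters, scalings and thresholds, length and GC adjustment, and leaving out each column.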

Additional observations from a re-analysis of the deposited data

How the results depend on the processing

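No paired analysis was possible because there was 1 sample per strain. As deposited, 18 subunit genes were lower by 2-fold or more and 6 higher (2967 and 927 of the 6291 features). The lower count was 8 under upper quartile scaling (1693 of all features) and 6 after centring on the median feature (1296 of all features). It was 6 under the trimmed mean of M values (1431 of all features). It was 9 relative to coding length (955 of 5695 genes) and 8 with GC content added (772 of those genes). At a 4-fold threshold it was 5, with no count made over all features. Without 1 column it was 10 to 21 (2056 to 3250 of all features). Under equal FPKM totals it was 22 (4248 of all features). The higher count was 8 under upper quartile scaling, centring and the trimmed mean of M values (1513, 1797 and 1642 of all features). Under centring and the trimmed mean the higher genes outnumbered the lower ones, among the subunits and over all features alike. The higher count was 2 under equal FPKM totals (413 of all features). It was 3 relative to length (971 of 5695 genes) and 3 with GC content added (943 of those genes). It was 2 at 4-fold and 5 to 8 without 1 column (880 to 1117 of all features). MF02 column 1 alone gave the lower count of 10. Under all 4 scalings 6 were at least 2-fold lower and 2 higher (20.5% and 6.56% of all features). The sign of 6 subunit genes differed among the scalings. For all subunits, polymerase I, II and III and the common subunits, in that order, the median log2 ratio was -2.16, -2.37, -2.12, -2.14 and 0.44 under equal FPKM totals. It was -0.32, -0.42, -0.30, -0.34 and 2.32 after centring and -0.41, -0.42, -0.40, -0.49 and 2.30 under the trimmed mean of M values. Relative to length it was -0.37, -0.37, -0.64, -0.069 and 0.15. With GC content added it was -0.34, -0.38, -0.34, -0.065 and -0.33, so the common subunits reversed. Upper quartile scaling gave -0.52 for all subunits and -0.50 for polymerase II. Without 1 column the medians ran from -1.49 to -0.38, -1.86 to -0.54, -1.49 to -0.90, -1.51 to -0.52 and 0.50 to 1.74, with the last low without UV02_HG column 2. The polymerase I minus II difference over counterparts was -0.33 with a pseudocount of 5 and ran from -1.06 to -0.37 without 1 column. The polymerase III minus II difference was -0.0025 relative to length and GC content and ran from 0.33 to 0.93. Among single genes, RPA190 was at 0.23 relative to length, 0.15 with GC content added, and ran from -2.0 to 0.0384 without 1 column, the latter with MF02 column 1 alone. RPA49, RPC53 and RPB10 were at 0.11, 0.30 and -0.33 relative to length and GC content. The difference between genes with and without PAC, computed after seeing the data, was -0.45 and ran from -1.25 to -0.15 under the alternatives. The cause of these shifts was not tested.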
